A study of Arabidopsis thaliana with 24 samples.

Results

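The introns described here are those of Arabidopsis thaliana genes that carry many introns. They were taken as every named intron of at least 81 and under 500 bases whose host gene has 20 or more intron rows in the deposited tables, which gave 11060 of 120717 intron rows, in 504 of 22235 genes with introns. The rule used intron number and width only and no measured value. It drew its line among close neighbours, since 78 host genes have exactly 20 rows and 111 genes just outside have 19, and 221 introns are 81 bases wide while 215 introns of the same genes are 80. Their 13142 rows also include 1826 introns that were too short and 256 that were too long. The median host gene has 23 intron rows, 105 have 30 or more and 33 have 40 or more. The genes with the most rows encode ATM, the DNA damage kinase, with 78, a midasin-like protein (AT1G67120) with 74 and a pleckstrin homology domain protein (AT4G17140) with 67.

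Poly(A) RNA from whole plants was sequenced in 4 groups. WT Col (wild type, accession Columbia) and the lsm4 mutant (lsm4-1) grew on Murashige and Skoog agarose medium and were harvested at day 15. WT C24 (wild type, accession C24) and the lsm5 mutant (sad1/lsm5) grew on soil and were harvested at day 30, before bolting. All plants grew at 22 °C in continuous light. Each group had 3 replicates, and each replicate was sequenced as 2 libraries whose reads share 1 count column, so n = 3 throughout. The labels do not say whether replicates came from separately grown plants, and every p-value rests on the spread among these replicates, which may be technical. Each mutant is represented by 1 allele, and the lsm4 and lsm5 comparisons differ in accession, age and medium as well as in the mutated gene.

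LSM proteins form rings of related subunits that hold the 3′ end of an RNA. The nuclear ring, LSM2 to LSM8, binds the U6 small nuclear RNA, which pairs with the 5′ splice site in the catalytic core of the spliceosome, and a cytoplasmic ring with LSM1 in place of LSM8 takes part in mRNA decapping and decay. LSM4 and LSM5 belong to both rings. A transcript with many introns must be spliced correctly at every one of them, and an intron left in a plant mRNA often adds a stop codon or delays export from the nucleus.

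The introns are short and of the common kind. Their median width was 109 bases (quartiles 91 and 174), the median GC content was 33.3%, 98.6% begin with GT and end with AG, and 99.3% match an intron of the RefSeq annotation of TAIR10 exactly. The 5′ splice site of 15.7% begins with GTAAG, against 17.0% of all intron rows. An annotated exon of some transcript overlaps 330 of them (2.98%), against 8.69% of all intron rows, and reads there cannot be told from reads of that exon. Preparation did not mark strand, so reads of an overlapping gene on the other strand are also counted.

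The sequences below are printed so that introns called higher in lsm4, and 1 called higher in both mutants, can be read beside neighbours that were not called. Of these neighbours only RHD3 intron 20 was tested. NRPB2 intron 20 and ACA10 intron 17 had too few reads to be tested, so they do not show an absence of change. Each is the RefSeq sequence of the TAIR10 build in the sense of the transcript, with the first 6 bases (the 5′ splice site) and the last 3 bases (the 3′ splice site) in capitals. Introns are numbered from the 5′ end of the gene. The first set comes from VPS35C (a retromer subunit, which sorts cargo at endosomes), PKL (PICKLE, a chromatin remodelling ATPase) and DRP3B (a dynamin that divides mitochondria and peroxisomes).
VPS35C intron 20 (chr3:19044848-19044968, minus strand): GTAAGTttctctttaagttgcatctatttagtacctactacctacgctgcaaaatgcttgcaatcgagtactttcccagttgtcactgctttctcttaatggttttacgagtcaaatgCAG
PKL intron 22 (chr2:10721411-10721509, plus strand): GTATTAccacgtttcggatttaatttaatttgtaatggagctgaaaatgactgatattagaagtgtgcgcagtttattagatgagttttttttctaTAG
DRP3B intron 15 (chr2:5955462-5955607, minus strand): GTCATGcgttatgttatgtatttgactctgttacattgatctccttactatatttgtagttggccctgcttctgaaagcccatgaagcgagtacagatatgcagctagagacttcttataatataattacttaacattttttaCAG

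The last introns of RHD3, which encodes a GTPase that shapes the endoplasmic reticulum and is needed for root hair growth, show a pair that rose in lsm4 beside one that did not pass the test.
RHD3 intron 22 (chr3:4565978-4566087, minus strand): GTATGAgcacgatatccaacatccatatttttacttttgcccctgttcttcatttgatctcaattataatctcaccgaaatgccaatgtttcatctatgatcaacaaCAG
RHD3 intron 21 (chr3:4566185-4566286, minus strand): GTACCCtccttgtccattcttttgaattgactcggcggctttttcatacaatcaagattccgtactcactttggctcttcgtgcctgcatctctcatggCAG
RHD3 intron 20 (chr3:4566382-4566598, minus strand): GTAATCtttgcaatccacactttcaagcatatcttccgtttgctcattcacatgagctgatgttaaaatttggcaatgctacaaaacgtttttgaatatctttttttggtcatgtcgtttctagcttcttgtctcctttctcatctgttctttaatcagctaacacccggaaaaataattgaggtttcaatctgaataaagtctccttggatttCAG

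NRPB2 encodes the second-largest subunit of RNA polymerase II, and its intron 21 is shown with the neighbour before it.
NRPB2 intron 21 (chr4:11536914-11537013, minus strand): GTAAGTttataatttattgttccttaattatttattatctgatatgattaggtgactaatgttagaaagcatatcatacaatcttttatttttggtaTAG
NRPB2 intron 20 (chr4:11537068-11537148, minus strand): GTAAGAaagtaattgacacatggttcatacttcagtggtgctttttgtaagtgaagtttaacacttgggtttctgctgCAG

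ACA10 encodes a calcium pump of the plasma membrane, and its intron 18 is shown with its neighbour because it rose in both mutants.
ACA10 intron 18 (chr4:14614699-14614846, minus strand): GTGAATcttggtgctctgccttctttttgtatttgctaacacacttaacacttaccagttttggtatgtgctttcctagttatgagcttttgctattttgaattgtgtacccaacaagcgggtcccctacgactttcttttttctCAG
ACA10 intron 17 (chr4:14614931-14615034, minus strand): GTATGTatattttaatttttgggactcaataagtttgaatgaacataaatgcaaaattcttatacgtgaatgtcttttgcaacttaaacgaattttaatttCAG

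The splice sites of these introns vary. VPS35C intron 20 and NRPB2 intron 21 both begin with GTAAGT, PKL intron 22 begins with GTATTA, and ACA10 intron 18 begins with GTGAAT. NRPB2 intron 20, the neighbour with too few reads to be tested, begins with GTAAGA. Over all the introns called higher in lsm4, 8 of 36 (22.2%) begin with GTAAG, against 13.8% of the introns tested there.

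Reads in these introns were few. Gene counts per replicate ran from 9402839 in WT Col replicate 1 to 52218346 in WT Col replicate 2, the host genes held 204741 to 956583 of them, and the introns themselves held 5224 to 28959 reads. A read fell in 19.4% to 51.1% of the introns in a replicate. Some replicates stood apart in their gene counts. A chi-square comparison of gene counts gave 115 and 148 per degree of freedom for lsm4 replicate 2 set against the other lsm4 replicates, which differed from each other by 39.3. WT Col replicate 2, the deepest, gave 71.2 and 84.8 beside 48.5. This measure grows with depth, which differed widely among the WT Col replicates, so it does not show which of them stood apart. For WT C24 replicate 2 it gave 90.1 and 95.5 beside 16.0, and for lsm5 replicate 3 it gave 133 and 136 beside 18.97. Leaf marker genes (RuBisCO small subunit and chlorophyll-binding proteins, all 3 detected) summed to 61836 to 67834 CPM (gene counts scaled to the same library total) in WT Col and 17399 to 31955 in lsm4, while WT C24 had 47399 to 74697 and lsm5 35081 to 62736. Root markers summed to 123 to 201 in WT Col and 58.8 to 78.1 in lsm4, and to at most 0.46 in WT C24 and lsm5, although the label is whole plants. Among the leaf markers, RBCS1A (RuBisCO small subunit) overlapped between WT Col (17530 to 28217 CPM) and lsm4 (11022 to 19151 CPM). The chlorophyll-binding protein genes CAB1 and CAB3 did not overlap. The part of these marker differences in the intron results was not tested, and in whole plants fewer cells of a type and less RNA per cell cannot be told apart. The gene count of LSM4 (AT5G27720) was 56.3 ± 16.3 CPM in wild-type Columbia and 356 ± 107 CPM in the lsm4 mutant (SD, n = 3), and that of LSM5 (SAD1) was 15.8 ± 3.83 in WT C24 and 12.6 ± 3.58 in lsm5. A count over a whole gene does not show which part of the transcript was made, so it does not check the alleles.

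The first question was how much intron RNA the many-intron genes carried in each group. Their introns together held more reads per host gene read in both mutants. Summed intron reads made up 2.55%, 2.48% and 2.43% of host gene reads in WT Col replicates 1 to 3 and 4.02%, 3.71% and 3.66% in lsm4. They made up 2.30%, 2.32% and 2.36% in WT C24 and 2.81%, 2.71% and 2.65% in lsm5. The mutant and wild-type values did not overlap in either pair.

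The ratio of geometric means was 1.53 for lsm4 (log2 difference 0.61) and 1.17 for lsm5 (log2 difference 0.23), and these summed changes were not tested against each other. An exact two-sided permutation test gave p = 0.1 in each pair, the smallest value that 3 against 3 can give. Permuting labels within each accession and adding both differences gave a mean log2 difference of 0.42 (1.34-fold) and an exact p of 0.005, the smallest that its 400 regroupings allow. Introns clear of every annotated exon differed by 1.66-fold in lsm4 and 1.17-fold in lsm5.

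**Figure D1:**
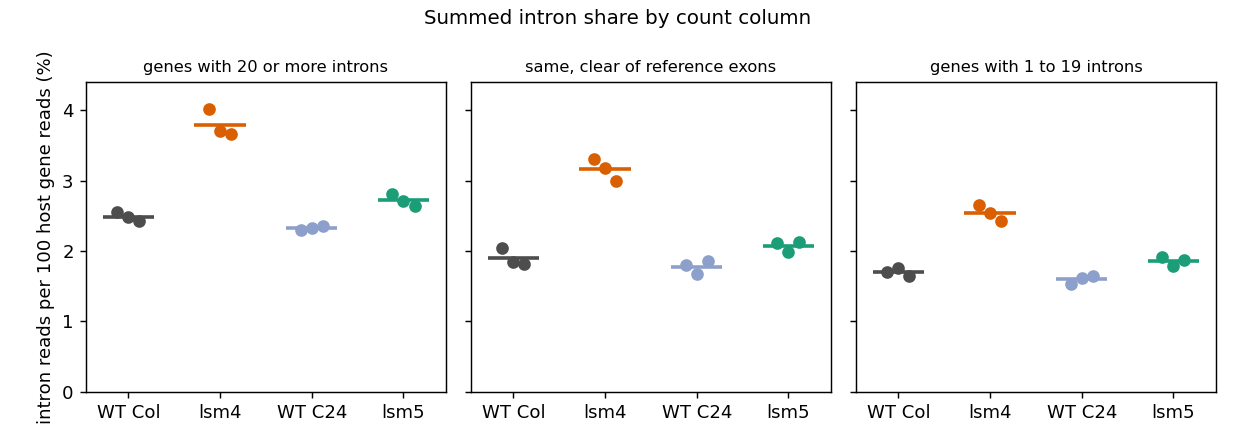
Summed intron reads as a percentage of host gene reads, 1 point per replicate and a bar at the group mean, for introns of genes with 20 or more introns (left), the same without introns over an annotated exon (middle) and introns of the same widths in genes with 1 to 19 introns (right). In the left panel lsm4 sits between 3.66% and 4.02% and WT Col between 2.43% and 2.55%, while lsm5 sits between 2.65% and 2.81% and WT C24 between 2.30% and 2.36%.

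The rise was not shown to be particular to genes with many introns. Introns of the same widths in genes with 1 to 19 rows made up 1.70%, 1.76% and 1.65% of host gene reads in WT Col and 2.65%, 2.54% and 2.43% in lsm4. They made up 1.53%, 1.62% and 1.64% in WT C24 and 1.91%, 1.78% and 1.88% in lsm5. Relative to those introns, the many-intron genes differed by a log2 value of 0.03 in lsm4 (exact permutation p = 0.4) and 0.01 in lsm5 (exact permutation p = 0.9), and by 0.02 over both mutants (exact permutation p = 0.425).

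Genes with 1 intron row, a class chosen after the data were seen, were also set beside them. Their share was 0.87% to 1.04% in WT Col and 1.16% to 1.26% in lsm4. Against that class the many-intron genes rose by a further 0.29 on the log2 scale in lsm4, with no overlap between groups (exact permutation p = 0.1, the smallest possible). The further change was 0.0086 in lsm5 (exact permutation p = 0.9) and 0.15 over both mutants (exact permutation p = 0.105). These shares are not per base, so they are compared between groups and not between classes.

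The typical gene showed the same order of groups. A gene's intron density is its intron reads per base as a percentage of its gene reads per base. The median over host genes was 2.86%, 2.93% and 2.76% in WT Col and 5.13%, 4.85% and 4.44% in lsm4. It was 2.48%, 2.33% and 2.59% in WT C24 and 3.295%, 3.14% and 3.26% in lsm5. The ratios were 1.69 and 1.31, and again the groups did not overlap. Fewer introns were left without any read: among introns whose host gene had over 30 reads, 45.1% had none in WT Col and 26.0% in lsm4, 52.9% in WT C24 and 39.9% in lsm5. These last shares move with depth, and WT Col replicate 1 and WT C24 replicate 1 were the shallowest of the 6 replicates in their pairs.

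Single introns were then tested against their host gene with edgeR's quasi-likelihood test over all introns of a table, with Benjamini-Hochberg adjusted p under 0.05 as the call. Low counts decided which introns could be tested. In the lsm4 comparison 362 of the 11060 introns (3.27%), in 178 host genes, passed the filter of about 10 reads in 3 replicates, and 1763 had no read in any replicate of the pair. The share that passed fell with intron number, from 15.2% of introns in genes with 1 row to 11.1%, 6.84% and 3.27% in genes with 2 to 9, 10 to 19 and 20 or more rows. The introns tested are therefore those with the most reads and not the introns of these genes as a whole. Any 3 replicates of the pair could meet the filter, so an intron with reads in the mutant only could enter the test.

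In lsm4, 36 introns were called higher and 1 lower, in 35 host genes. Over all introns tested, 17.8% were called higher and 0.297% lower, so the 9.94% called higher here lay below that background. Here and below, all introns tested include introns of every width, so that background is not matched in width. The median log2 change was 0.42, against 0.65 over all introns tested. At the same widths it was 0.53, 0.63 and 0.57 in genes with 1, 2 to 9 and 10 to 19 rows. At the same widths the share called higher was 18.7%, 15.9%, 15.3% and 9.94% from genes with 1 row to genes with 20 or more. It was 10.2% for 20 to 29 rows and 8.86% for 30 or more. The median lsm4 count of the introns tested also fell over the first 4 classes, 30.7, 23.7, 20.3 and 18.2 reads a replicate. The part of read number in these shares was not tested, so they do not show a weaker rise in many-intron genes. Introns over an annotated exon made up 20.4% of the introns tested here and 1 of the 36 called higher.

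These calls depend on the scaling. The counts below are given without the share of all introns called in the same fit, so they show only how far the calls shift. Against the total library (TMM) in place of the host gene, 27 introns were called higher and 25 lower. Measured from the median tested intron, which itself lay 0.65 higher, 6 were called higher and 3 lower. Leaving out WT Col replicate 2, the deepest, left 17 calls, leaving out lsm4 replicate 1 left 18, and leaving out the shallow WT Col replicate 1 gave 57. Without lsm4 replicate 2 and the shallow WT Col replicate 1 there were 64 higher and 1 lower, and without lsm4 replicate 2 and WT Col replicate 2 there were 17 higher and 0 lower.

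The 5 introns called in every fit that tested them, each replicate left out in turn included, belong to HIT1, RHD3, AT5G08650, NRPB2 and VPS35C. In lsm4 their mean density ran from 10.3% to 148% of their gene's density. In WT Col 4 of them held 1 to 5 reads in all and the VPS35C intron held 22. Those 4 passed the filter only through their lsm4 reads, so their large rises follow in part from the filter. Being called in every fit does not remove this. Of the 37 calls in lsm4, 6 had 1 to 3 reads in WT Col and 13 had 4 to 9.

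HIT1 encodes the VPS53 subunit of a complex that tethers vesicles at the Golgi, and its first intron (chr1:18715646-18715847, minus strand, outside the coding span) held 0, 3 and 2 reads in WT Col and 35, 75 and 67 in lsm4. Its density was 0%, 2.24% and 2.69% in WT Col and 25.5%, 57.6% and 49.1% in lsm4, so that the lowest mutant value was far above the highest wild-type value. The log2 change was 4.31 (SE 0.59, edgeR adjusted p = 0.00092). An exon of another annotated transcript covers all 202 bases of this intron, and reads of that transcript cannot be told from retained intron.

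RHD3 intron 22, the last of its gene and printed above, held 0, 1 and 0 reads in WT Col and 24, 49 and 39 in lsm4. The density was at most 0.92% in WT Col and 14.9%, 13.9% and 23.4% in lsm4. With 1 wild-type read the ratio of reads relative to the host was 30.9, with an exact 95% counting interval of 5.43 to 1231 (edgeR adjusted p = 0.0025). RHD3 intron 21 held 1, 2 and 1 reads in WT Col and 25, 42 and 12 in lsm4 (log2 change 2.37, SE 0.69, edgeR adjusted p = 0.029). That call ended when WT Col replicate 2 or 3, or lsm4 replicate 1 or 2, was left out (adjusted p = 0.17, 0.088, 0.097 and 0.059). RHD3 intron 20 held 30 reads in WT Col and 101 in lsm4, with a log2 change of -0.12 relative to a host gene that itself rose by 1.42 (SE 0.28, edgeR adjusted p = 0.0083), and was not called.

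The rise of RHD3 intron 22 in lsm4 was not seen in the C24 pair. Intron 22 held 10, 3 and 8 reads in WT C24 and 7, 7 and 11 in lsm5, densities of 4.00% to 14.8% and 7.96% to 11.3% that overlap. It had the smallest p of the test between the mutants among these introns (log2 difference 4.75, SE 1.11, edgeR adjusted p = 0.28), which did not pass.

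AT5G08650, annotated as a small GTP-binding protein, held 0, 2 and 0 reads of intron 8 (chr5:2810677-2810938) in WT Col and 36, 14 and 22 in lsm4. The ratio relative to the host was 36.0 (95% counting interval 9.60 to 303, edgeR adjusted p = 0.0023). The same intron held 2 reads in WT C24 and 25 in lsm5, where it was too low to be tested.

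NRPB2 intron 21, printed above, held 0, 2 and 0 reads in WT Col and 24, 25 and 14 in lsm4. Its density in lsm4 was 50.6%, 46.8% and 28.8% of the gene's, and the ratio relative to the host was 18.9 (95% counting interval 5.01 to 159, edgeR adjusted p = 0.0043). It was the highest of the 24 introns of NRPB2 in lsm4, where the next, intron 9, had 16.6%. The neighbouring intron 20 held 3 reads in WT Col and 18 in lsm4, too few to be tested. Its mean density was 7.52% in WT Col and 14.8% in lsm4. In the C24 pair intron 21 held 1 read in WT C24 and 5, 4 and 17 in lsm5, again too few to be tested.

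VPS35C intron 20, the last of the gene, held 0, 16 and 6 reads in WT Col and 53, 46 and 234 in lsm4. Its density was 0%, 17.5% and 11.6% in WT Col and 75.9%, 60.6% and 307% in lsm4, so lsm4 replicate 3 had more reads per base in the intron than over the gene. The log2 change was 3.55 (SE 0.67, edgeR adjusted p = 0.0039) and 2.46 (adjusted p = 0.012) without lsm4 replicate 3. In the C24 pair the intron had 14.4%, 15.8% and 13.8% in WT C24 and 49.5%, 39.9% and 38.1% in lsm5, which do not overlap, with a log2 change of 1.51 (SE 0.51, edgeR adjusted p = 0.21) that was not called.

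**Figure D2:**
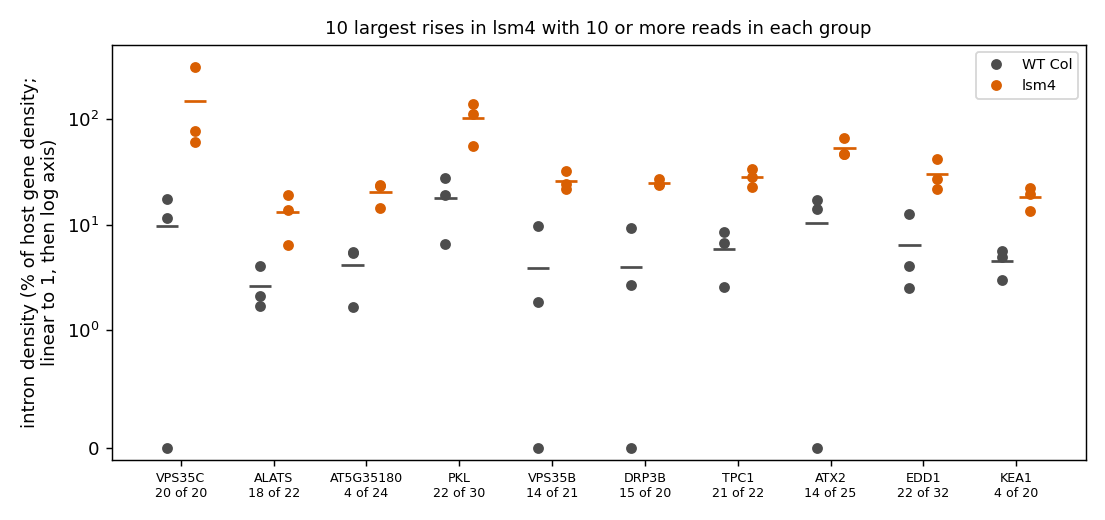
Density of single introns as a percentage of the host gene's density (linear to 1, then a log axis), for the 10 introns called higher in lsm4 with the largest change among those with 10 or more reads in each group. Points are replicates and bars group means. VPS35C intron 20 reaches 307% in lsm4 replicate 3, while its WT Col replicates lie at 17.5% or below.

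Among introns with at least 10 reads in each group, the largest rise was that of VPS35C. After it came ALATS intron 18 (alanyl-tRNA synthetase, log2 change 2.54, SE 0.62), AT5G35180 intron 4 (2.51, SE 0.57) and PKL intron 22 (2.27, SE 0.47). PKL held 1, 24 and 9 reads of that intron in WT Col and 73, 27 and 56 in lsm4, densities of 6.53% to 27.6% against 54.9% to 138%, and its call held with each replicate left out (edgeR adjusted p = 0.0059). The call for ALATS (adjusted p = 0.013) and that for AT5G35180 (adjusted p = 0.0088) ended without WT Col replicate 2 (adjusted p = 0.085 and 0.078). In C24 ALATS intron 18 held 16, 11 and 20 reads in the wild type and 12, 15 and 21 in lsm5, so the low level of WT Col was not seen in the other wild type.

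VPS35B intron 14, DRP3B intron 15, TPC1 intron 21 (a vacuolar cation channel), ATX2 intron 14 (a trithorax-like histone methyltransferase), EDD1 intron 22 (glycyl-tRNA synthetase) and KEA1 intron 4 (a chloroplast potassium antiporter) followed, with log2 changes of 2.15, 2.15, 2.07, 1.98, 1.95 and 1.92. Each of these 6 calls ended when 1 of several replicates was left out, WT Col replicate 3 among them every time (adjusted p = 0.086, 0.070, 0.092, 0.067, 0.084 and 0.10). KEA1 also turned in direction against the total library, to a log2 change of -0.15, beside a host gene that fell by 1.54 (edgeR adjusted p = 0.0011). DRP3B intron 15 held 0, 12 and 2 reads in WT Col and 33, 24 and 33 in lsm4.

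All 3 VPS35 genes, which encode the same retromer subunit, had 1 intron called higher, a pattern picked out after the values were seen. VPS35A intron 6 had 0%, 15.7% and 11.6% in WT Col and 71.2%, 64.4% and 45.7% in lsm4 (log2 change 2.32, SE 0.62, edgeR adjusted p = 0.019). The introns lie at different places, number 6 of 20, 14 of 21 and 20 of 20. Leaving out 1 replicate ended the calls of VPS35A and VPS35B but not that of VPS35C; for VPS35A the adjusted p was 0.059, 0.058 and 0.082 without WT Col replicate 2, WT Col replicate 3 and lsm4 replicate 1.

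Other introns with 3 or fewer wild-type reads were GCT intron 16 (a Mediator subunit, 2 reads in WT Col against 25, 10 and 20 in lsm4) and AT4G32920 intron 7 (a glycine-rich protein, 3 reads against 13, 23 and 12). The ratios relative to the host were 11.3 (95% counting interval 2.98 to 95.6) and 7.82 (2.52 to 39.2). Both calls ended without WT Col replicate 3, lsm4 replicate 1 or another single replicate (adjusted p = 0.055 to 0.12). AT5G02940, an ion channel of the POLLUX type, was with RHD3 the only host gene with 2 called introns, its neighbours 11 and 12 (log2 changes 3.18 and 2.31), and both calls ended without WT Col replicate 2 (adjusted p = 0.084 and 0.15).

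The intron called lower was number 39 of 44 in AT5G51200, which encodes a nuclear pore protein. Its density was 378%, 232% and 184% in WT Col and 114%, 58.6% and 101% in lsm4, above the gene average in most replicates. It fell by 1.502 on the log2 scale (SE 0.42, edgeR adjusted p = 0.023). The call ended without WT Col replicate 1 or 2 or lsm4 replicate 2 or 3 (adjusted p = 0.054, 0.060, 0.052 and 0.051), and 3 bases of the intron lie over an annotated exon.

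The lsm5 comparison gave few calls. Of 201 introns tested, 2 were called higher (0.995%) and 0 lower, against 0.517% higher and 0.014% lower over all introns tested, and 9 had an unadjusted p under 0.05. DESeq2 also called 2. The median log2 change was 0.11, against 0.24 over all introns tested. WT C24 replicate 2 and lsm5 replicate 3 stood apart from their groups, and without both there were 18 introns called higher and 10 lower. The share of all introns called in that fit is not given here, so these counts are not a result about many-intron genes.

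The 2 introns called in lsm5, ACA10 intron 18 and HIT1 intron 1, were both also among the 36 called higher in lsm4. Only 8 of those 36 could be tested in lsm5. The 2 introns called in lsm5 each held 1 read in WT C24 and passed the filter only through their lsm5 reads. ACA10 intron 18 held 0, 0 and 1 reads in WT C24 and 16, 17 and 23 in lsm5, and 0, 3 and 3 in WT Col and 32, 46 and 23 in lsm4. Its density was 12.2%, 12.1% and 13.9% in lsm5 and 21.6%, 24.7% and 16.5% in lsm4, and at most 5.04% in any wild-type replicate. In lsm5 the ratio relative to the host was 39.2 (95% counting interval 6.76 to 1577, edgeR adjusted p = 0.040), and in lsm4 the log2 change was 2.81 (SE 0.60, edgeR adjusted p = 0.0069).

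HIT1 intron 1 held 0, 1 and 0 reads in WT C24 and 29, 20 and 13 in lsm5. Its density in lsm5 was 29.8%, 20.2% and 15.0%, and the ratio relative to the host was 46.4 (95% counting interval 8.02 to 1860, edgeR adjusted p = 0.040). In lsm5 both calls ended without WT C24 replicate 1 or 3 or lsm5 replicate 1 or 2, with adjusted p from 0.11 to 0.23, although the log2 change stayed at 4.59 or above. In lsm4 the call of ACA10 ended without WT Col replicate 2 (adjusted p = 0.060).

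Other introns of these genes also had higher mean densities in lsm4. The median over all introns of the gene was 2.31% in WT Col and 4.39% in lsm4 for ACA10, 2.50% and 5.11% for NRPB2, and 3.82% and 5.69% for RHD3, while for HIT1 it was 2.98% and 2.44%. ACA10 has 34 introns, and its intron 17, next to the called one, held 2 reads in WT Col and 7 in lsm4, too few to be tested. The intron with the highest density of ACA10 was number 25 in all 4 groups (17.6%, 24.3%, 15.6% and 18.5% in WT Col, lsm4, WT C24 and lsm5), and it was not called. HIT1 intron 2 held 0 reads in WT Col and 2 in lsm4. HIT1 intron 16, too short to be among the introns described here, was the highest of the gene in WT Col (26.0%) and lsm4 (89.3%).

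**Figure D3:**
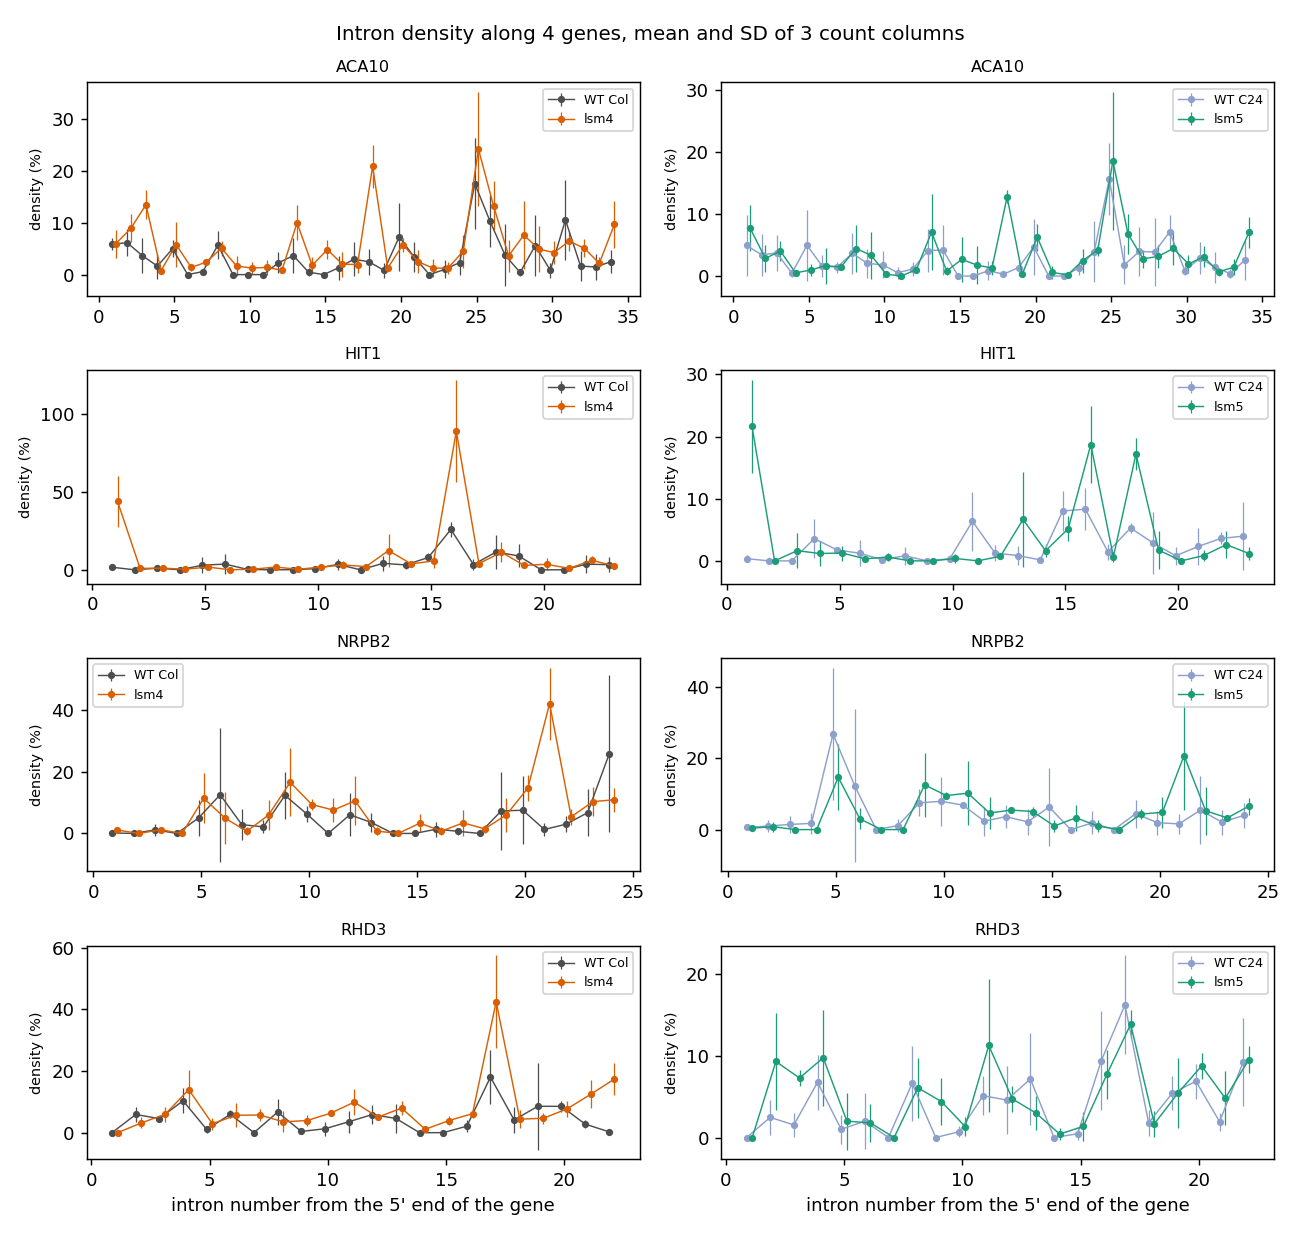
Intron density as a percentage of the host gene's density, mean and SD of 3 replicates, along ACA10, HIT1, NRPB2 and RHD3 from the 5′ end, with WT Col and lsm4 on the left and WT C24 and lsm5 on the right. ACA10 intron 18 and HIT1 intron 1 stand above their wild type in both mutants, NRPB2 intron 21 reaches 42.1% in lsm4 and 20.8% in lsm5, and RHD3 intron 22 is near 0 in WT Col only.

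No intron passed a direct test of lsm4's change against lsm5's change. Of 444 introns tested, 0 were called with edgeR, against 0.0145% of all introns tested, and 40 had an unadjusted p under 0.05. Over the 160 introns tested in both mutants, whose groups share no samples, Pearson's r of the log2 changes was 0.33 and Spearman's rho 0.01. These are descriptions across introns, which are not replicates, and 61 of the 160 lay above 0 in both. The called introns of HIT1 (4.31 in lsm4 and 5.15 in lsm5) and ACA10 (2.81 and 4.91) had large values in both mutants. They passed the lsm5 filter only through their lsm5 reads, and Pearson's r was not taken without them.

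Because so few single introns could be tested, the introns of each gene were also summed, a step added after the data were seen. In lsm4, 394 of the 504 genes could be tested, 123 were called higher (31.2%) and 0 lower, against 32.4% higher and 0.273% lower over all genes tested. The median log2 change was 0.76, against 0.77 over all genes, and 94.2% of the many-intron genes lay above 0, against 91.0%. At this level the many-intron genes were close to the background. Of the 123 genes, 104 were not called in gene count, 8 rose and 11 fell. Without WT Col replicate 2, WT Col replicate 3 or lsm4 replicate 1 there were 62, 63 and 64 calls, without WT Col replicate 2 and lsm4 replicate 2 together there were 32, and measured from the median gene there were 7 lower and 0 higher.

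The largest summed rise was in RHD4, a phosphoinositide phosphatase of root hair growth, whose intron density was 1.03%, 0.90% and 0.61% in WT Col and 4.07%, 2.40% and 3.85% in lsm4 (log2 change 2.06, SE 0.40, edgeR adjusted p = 0.0016). None of its 20 introns was called alone, and its gene count did not pass the test (log2 change 0.14, adjusted p = 0.64). PHOT1, the blue-light receptor of phototropism, rose from 0.55% to 1.03% in WT Col to 1.79% to 2.91% in lsm4 (log2 change 1.67, SE 0.31). PWD, a kinase that phosphorylates starch before its breakdown, stood at 5.40%, 5.56% and 3.12% in WT Col and 18.6%, 14.4% and 13.3% in lsm4 (log2 change 1.67, SE 0.33). NUA, a protein of the nuclear pore basket, rose by 1.60 (SE 0.35), RSH1, a plastid regulator of the stringent response, by 1.59 (SE 0.39), and XRN3, a nuclear exoribonuclease, by 1.59 (SE 0.33). All 5 had adjusted p between 0.0010 and 0.0057.

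**Figure D4:**
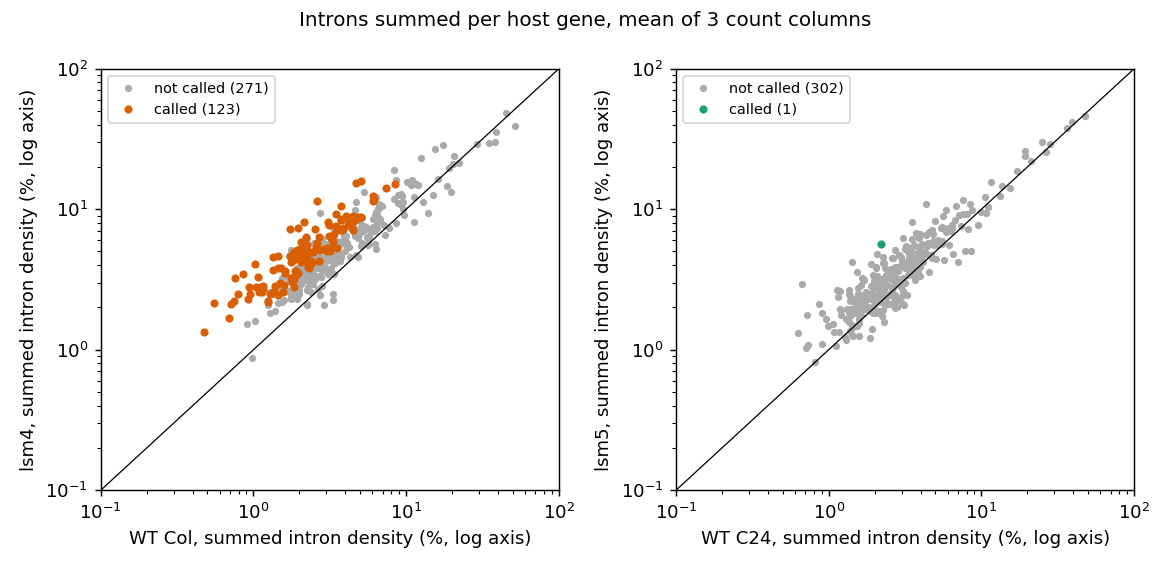
Density of introns summed per host gene, mean of 3 replicates, in the mutant against its wild type on log axes, for the 394 genes tested in lsm4 (left) and the 303 tested in lsm5 (right), with a line of equality. Coloured points are genes called higher: 123 in lsm4, spread over the whole range of wild-type densities below about 10%, and 1 in lsm5.

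In lsm5, 303 genes could be tested, and 1 was called higher (0.33%), against 2.14% over all genes tested, while 23 had an unadjusted p under 0.05. The median log2 change was 0.26, against 0.34 over all genes. The gene called was AT1G56120, a leucine-rich repeat receptor kinase (log2 change 1.36, SE 0.26, edgeR adjusted p = 0.020) whose gene count fell by 1.18. It has close relatives beside it, AT1G56130 and AT1G56140, so reads may have been split between copies and this value is uncertain. The call was lost without WT C24 replicate 1, WT C24 replicate 3 or lsm5 replicate 2, which left 0 calls, and without WT C24 replicate 2 and lsm5 replicate 3 together there were 9 higher and 1 lower. In the test between mutants 0 of 398 genes were called, against 0.0576% over all genes.

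Of the genes with the most introns, AT4G17140 rose in lsm4 (log2 change 1.12, SE 0.34, edgeR adjusted p = 0.020). ATM (0.48, adjusted p = 0.21), the midasin-like gene (0.53, adjusted p = 0.44), TOR (0.83, adjusted p = 0.068), the lipid-binding protein AT1G48090 (0.57, adjusted p = 0.076) and ILA (-0.05, adjusted p = 0.90) were not called.

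The 11 protein families often encoded by long genes gave 93 genes, of which 70 have 20 or more introns. Their summed introns were called higher in lsm4 in 12 of the 53 that could be tested and in lsm5 in 0 of 35, against the 32.4% and 2.14% of all genes above. The exocyst, which tethers secretory vesicles at the plasma membrane, had 3 of 5 higher: SEC3A (log2 change 1.27), SEC6 (1.06) and SEC8 (1.31). Nuclear export and pore genes had 3 of 8, the exportin XPO1A (1.26), the importin SAD2 (1.27) and the pore protein SAR1, also called NUP160 (0.99). RNA processing and decay genes had 3 of 5, the nuclear exoribonuclease XRN3 (1.59), the cytoplasmic exoribonuclease XRN4 (1.20) and UPF1, the helicase of nonsense-mediated decay (0.90).

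The remaining families had fewer. PKL was the 1 of 5 chromatin remodellers (1.42), NRPB2 the 1 of 3 large RNA polymerase subunits (0.81) and XI-I the 1 of 9 myosins (0.99). Callose synthases had 0 of 7, SMC proteins 0 of 3, PIKK kinases and their relatives 0 of 3, DNA polymerases 0 of 3 and Dicer-like genes 0 of 2. Of these families' single introns, 21 were tested in lsm4, and 5 were called higher, beside 17.8% of all introns tested, in GSL03 (intron 32, 2.87), NRPB2, PKL, XRN4 (intron 16, 2.22) and UPF1 (intron 25, 1.66), and 1 lower, in AT5G51200. In lsm5 10 were tested and 0 called, where 0.517% of all introns tested were called higher. The calls of GSL03, XRN4 and UPF1 ended without WT Col replicate 2 (adjusted p = 0.12, 0.20 and 0.13). That of XRN4 also ended without WT Col replicate 3 or lsm4 replicate 1 or 3, and that of UPF1 whichever replicate was left out. The calls of XRN4 and UPF1 were also lost with DESeq2, with TMM and with the replicate number as a block.

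Few host genes passed the test in their own level. In lsm4 36 of 477 host genes rose and 38 fell, against 10.7% and 10.7% of all genes tested. In lsm5 3 of 475 rose and 7 fell, against 1.51% and 0.938%. Of the 36 introns called higher in lsm4, 7 lie in genes that rose and 2 in genes that fell.

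Intron reads were unevenly spread along the genes in every group. Each gene's introns were split by their order into 3 parts, which hold 3718, 3541 and 3801 of the introns. Introns over an annotated exon were kept, and the split was not repeated without them. In WT C24 the mean summed share of host gene reads was 2.33% with them and 1.78% without them. The part on the 3′ side held 44.3% to 47.8% of the intron reads in WT Col, 45.9% to 47.2% in lsm4, 55.0% to 58.2% in WT C24 and 54.1% to 56.5% in lsm5. The part on the 5′ side held 29.6% to 33.2%, 27.4% to 29.7%, 22.0% to 23.9% and 22.8% to 25.2%. Both accession pairs leaned to the 3′ side, the older C24 plants more than the Columbia plants, a contrast that was not tested because accession, age and medium differ together.

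The lean did not differ detectably between mutant and wild type. The ratio of read density on the 5′ side to that on the 3′ side changed by a log2 value of -0.14 in lsm4 (exact permutation p = 0.2), 0.11 in lsm5 (exact permutation p = 0.2) and -0.01 over both (exact permutation p = 0.83). With 1 replicate left out the lsm4 value ran from -0.18 (without WT Col replicate 1, exact permutation p = 0.1, the smallest possible) to -0.070 (without WT Col replicate 2, exact permutation p = 0.4), and the lsm5 value from 0.077 to 0.16 (exact permutation p = 0.3 and 0.1). The introns called higher in lsm4 lay in the 3′ part in 22 of 36 cases (61.1%), against 52.8% of the introns tested and 34.4% of all these introns. Their median width was 118 bases, against 130 among those tested, and their median GC content 35.0%, against 34.1%.

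**Figure D5:**
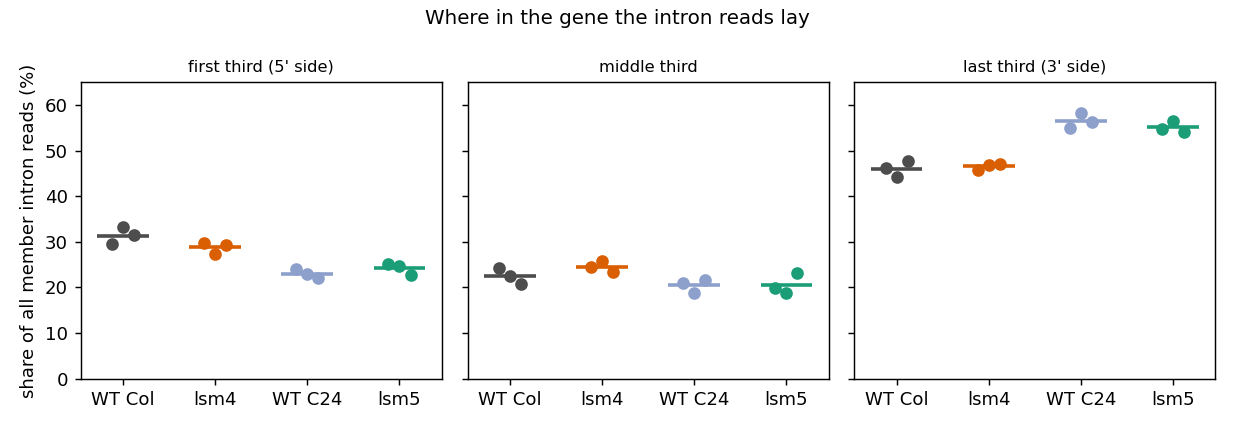
Share of all reads of these introns that lay in the 5′, middle and 3′ part of the gene's intron order, 1 point per replicate and a bar at the group mean. The 3′ part holds 44.3% to 47.8% in WT Col and lsm4 and 54.1% to 58.2% in WT C24 and lsm5.

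The introns with the highest densities in wild type all lie over annotated exons, and those described here were not called. Among introns with 100 or more reads, AT1G35110 introns 2 and 1 had mean densities of 1021% and 986% in WT Col and 1102% and 1104% in lsm4. Intron 1 of FCA, the flowering-time gene known for alternative processing of its transcript, had 438%, 598% and 566% in WT Col and 542%, 410% and 461% in lsm4 (log2 change -0.19, edgeR adjusted p = 0.61). In the C24 pair it had 339% ± 51.7 and 404% ± 71.5 (SD, n = 3, log2 change 0.25, edgeR adjusted p = 0.80). The last intron of emb2411, a DNA replication helicase, had 455% ± 261 in WT Col and 537% ± 76.0 in lsm4 (edgeR adjusted p = 0.84).

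The authors' deposited tables list introns with a false discovery rate up to 0.15, from their own test on the same samples. A shared direction was therefore to be had in advance and is not independent support. In lsm4 114 of the 3024 introns listed as higher are among those described here, and 63 of the 1191 listed as lower. Of the 114, 28 could be tested here, all 28 in the same direction and 21 called. Of the 63, 39 could be tested, all 39 in the same direction and 1 called. In lsm5 the authors' deposited tables list 8 of 416 higher and 4 of 112 lower among these introns, and the 2 of the 8 that could be tested were both called. The authors' deposited tables share 4 of these introns between the higher lists of both mutants, out of 114 and 8.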

How the data were processed

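Poly(A) RNA was sequenced, and TopHat2 2.0.9, R 3.0.2, edgeR 3.4.2 and the TAIR10 build are named, without their roles, per the submitters' processing notes. The deposited tables hold whole-number counts per gene and per intron, not normalized, in 1 column per replicate, which was taken to hold both libraries of a replicate because 2 sample labels share each column's tag. The authors' deposited comparison tables hold a log2 fold change and an FDR, a p-value adjusted over introns, from their own test. No strand setting for counting is given in the sources used here. The C24 intron table has 12 further per-sample columns that were not used.

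The introns, lists and tests were chosen with earlier results of these data known. Intron counts were tested with edgeR 4.0.16 (R 4.3.3; quasi-likelihood, Benjamini-Hochberg over all introns tested) with the log of the host gene count as offset, which takes each intron relative to its gene. Introns whose host gene fell under 10 reads in any column were left out, and the rest had to pass filterByExpr at a minimum count of 10. Each mutant was compared with its own wild type, and a model over all 12 columns tested the difference between mutants. Gene counts were scaled with TMM. Summed shares were compared with exact permutation tests. Density is reads per base, as a percentage of the host gene's. Whether gene counts take in intron reads is not given in the sources used here, and in 474 genes the intron counts sum to more than the gene count in some column. Counting intervals are exact at 95% and cover counting error only. Gene names, strand, exons and sequences came from RefSeq's annotation of TAIR10.

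Counts were simulated for introns of all genes, with planted rises and falls in equal number. Recovery was taken over planted changes that passed the filter, 159 in lsm4 and 165 in lsm5. The lsm4 fit (9947 introns tested) recovered 70.1% of 4-fold and 6.10% of 2-fold changes with 6.35% of calls false. The lsm5 fit (6199 introns tested) recovered 51.3% and 7.06%, with 0% false. Recovery was not measured for the many-intron genes alone, nor for changes mostly in 1 direction. Introns were named by a fixed rule: the 10 largest rises and 5 largest falls with 10 or more reads in each group, up to 5 with 0 to 3 wild-type reads, introns called in both mutants, host genes and list genes with the most calls, and the highest wild-type densities. VPS35A, summed host genes and some neighbouring introns were picked after values were seen. Alternatives were DESeq2 1.42.0, other filters, offsets and member rules, the replicate number as a block, and leaving out each replicate. Versions of the Python tools were 3.11.15 (Python), 2.3.3 (pandas) and 1.17.1 (scipy).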

Additional observations from a re-analysis of the deposited data

How the results depend on the processing

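The rise in summed share kept its direction in both mutants under every summary, member rule and replicate left out. Counts of calls depended on the settings. They are given without the share called over all introns or genes in the same fit, so they show only how stable the calls were. In lsm4 the 37 calls became 5 with a mean count of at least 30, 69 with no filter on low counts, 9 when centred on the median intron, 10 when a log2 change of 1 was required, 136 and 8 with hosts of 15 or more and 30 or more rows, 65 without lsm4 replicate 2 and the shallow WT Col replicate 1, 17 without lsm4 replicate 2 and WT Col replicate 2 (both pairs chosen after seeing the data), and 17 to 57 with each replicate left out. In lsm5 the 2 calls became 0 with the stricter filter, 0 when centred, 0 when a log2 change of 1 was required, 1 without introns over an annotated exon, 4 and 1 with hosts of 15 or more and 30 or more rows, 28 without WT C24 replicate 2 and lsm5 replicate 3, and 0 to 2 with each replicate left out. Fewer introns or samples enter several of these fits; otherwise the cause was not tested. For introns summed per gene, the 123 calls in lsm4 became 7, all lower, when centred, 32 without lsm4 replicate 2 and WT Col replicate 2, and 62 to 144 with each replicate left out. The 1 call in lsm5 became 0 when centred, 10 without WT C24 replicate 2 and lsm5 replicate 3, and 0 to 1 with each replicate left out. Called host genes in lsm5 numbered 10 with TMM and 24 with DESeq2 size factors. Of the 37 introns called in lsm4, 26 lost the call without WT Col replicate 2, 21 without WT Col replicate 3, 19 without lsm4 replicate 1, 8 with DESeq2 and 30 when centred, and KEA1 turned to -0.15 with TMM.

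The share relative to genes with fewer introns, near 0 in the main comparison, turned in sign in lsm4 against genes with 10 to 19 rows (-0.0099). In lsm5 it turned without introns over an annotated exon (-0.018), without the 20 highest introns of each class (-0.063) and over replicates left out (-0.020 to 0.034). At -0.063 the groups did not overlap (exact permutation p = 0.1, the smallest possible). In lsm4 the value was 0.13 without introns over an annotated exon and 0.076 without the 20 highest introns (exact permutation p = 0.2 for each). The position ratio over both mutants was 0.055 as a median over host genes and -0.037 to 0.020 with replicates left out. The cause was not tested.

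The replicate numbers of the titles share only a number: same-numbered deviations correlated at -0.27, -0.13 and 0.41 in the lsm4 pair and -0.26, 0.52 and 0.48 in the lsm5 pair. With the replicate number as a block there were 25 calls in lsm4 (23 higher, 2 lower), 2 in lsm5, 0 between the mutants, and 100 and 1 for introns summed per gene. The column tags match other replicates in the lsm4 pair (WT Col 2 with lsm4 1, and WT Col 3 with lsm4 3), where deviations correlated at 0.12 and 0.41, and leave 1 replicate of each group unmatched. With the tag as a replicate block, an alternative added after seeing the data, there were 74 calls in lsm4 (71 higher, 3 lower) and 2 in lsm5, and 182 and 0 for introns summed per gene. No source used here says that a tag marks a shared batch.

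At 5224 to 28959 reads a replicate over 11060 introns, 362 passed the filter for testing in lsm4 and 201 in lsm5, and differences in the others were not detectable at this depth.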
